A study of Mus musculus with 7 samples.

Results

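Imprinted genes are expressed mainly from the copy inherited from a single parent, a choice set by DNA methylation laid down in the egg or sperm. Many of them control growth before birth: paternally expressed members such as Igf2 and Dlk1 tend to promote it, and maternally expressed members such as Cdkn1c and Grb10 tend to restrain it. Most are expressed strongly in the embryo and placenta and decline after birth, with some expression kept in stromal and stem cells. The set described here was H19, Igf2, Dlk1, Meg3, Peg3, Plagl1, Cdkn1c, Grb10, Mest and Ndn, taken by gene symbol. Of these 10 genes, 8 had a row among the 21176 genes of the table. H19 and Meg3, the maternally expressed non-coding partners of Igf2 and Dlk1, were not analysed here.

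The cells were follicular dendritic cells (FDCs), the stromal cells that hold antigen in B-cell follicles, sorted from popliteal lymph nodes of male mice aged 8 to 12 weeks that had not been immunized. There were 4 wild-type (WT) and 3 Ngfr KO samples, each from the pooled nodes of several animals, and Ngfr encodes a neurotrophin receptor. The labels name the genotype only as Ngfr KO, so the allele and strain are not given in the sources used here. Values are reads per gene scaled by a single factor per sample (called TMM by the table's name), with no division by gene length. They carry no information on which parental copy a read came from.

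The WT libraries ranged from 17244925 to 18873542 reads and those of Ngfr KO from 20741770 to 21538400, so every Ngfr KO library was deeper and depth cannot be told apart from genotype between groups. A value of 1 was worth 230 to 295 reads. Ngfr itself was at 0.377, 0.677, 1.30 and 1.14 in WT replicates 1 to 4 and at 0.305, 0.353 and 0.184 in Ngfr KO replicates 1 to 3, lower in Ngfr KO without overlap but not at 0. Defining markers of the labelled cell type were present in every sample, with Cr2, the complement receptor that retains antigen, at 26.5 to 76.6 (WT) against 95.5 to 111 (Ngfr KO). Marker sums of several other cell types differed by genotype. The summed value of 16 endothelial markers, 15 of which were above 0 in every sample, ranged from 195 to 301 among WT samples and from 77.8 to 118 among Ngfr KO samples. The 16 FDC markers summed to 1852 to 5185 against 8143 to 10657, and 10 B cell markers, all above 0 in every sample, to 19.5 to 34.0 against 38.7 to 65.7. In only 1 of the B cell markers was every Ngfr KO value above the highest WT value, where 12.5% of all genes were so arranged. Of the 6 B cell markers tested by limma 2 were called, both higher, and 1 of the 10 had a lower mean in Ngfr KO. The 13 fibroblastic reticular cell markers, all above 0 in every sample, summed to 104 to 234 against 265 to 373 but moved in both directions. Of them 7 had a lower mean in Ngfr KO. Of the 11 tested by limma 4 were called higher and 1 lower, or 45.5% where 34.2% of all tested genes were called, with a median log2 change of 0.014. edgeR called 3 of the 13, 2 higher and 1 lower, or 23.1% against 15.2% of all its tested genes. In pooled sorted cells, fewer cells of a type and less RNA per cell cannot be told apart, and the part of these shifts in the results that follow was not tested.

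Read numbers differed widely among the members, from 16 reads over all 7 libraries for Dlk1 to 5430 for Ndn. Ndn and Grb10 were the 2 members that reached a value of 1 in at least 3 samples and so entered the main test (limma on log2(value + 1)). All 8 members had a lower mean in Ngfr KO than in WT, where 11752 of all 21176 genes did, although Ndn turned slightly higher under median ratio scaling (log2 change 0.043) and Plagl1 with array weights (0.018). In 2 of the 8, Cdkn1c and Mest, the Ngfr KO values were all below the lowest WT value, an arrangement seen in 13.1% of all genes. The opposite arrangement was seen in 12.5% of all genes and in 0 members. In the main test 0 of the 2 tested members were called, where 18.3% of all tested genes were called higher and 15.8% lower. edgeR's quasi-likelihood test on the recovered reads took in 6 members and called 1, Mest, lower. That is 16.7%, where edgeR called 15.2% of all its tested genes in either direction, 6.55% lower and 8.67% higher.

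**Figure D1:**
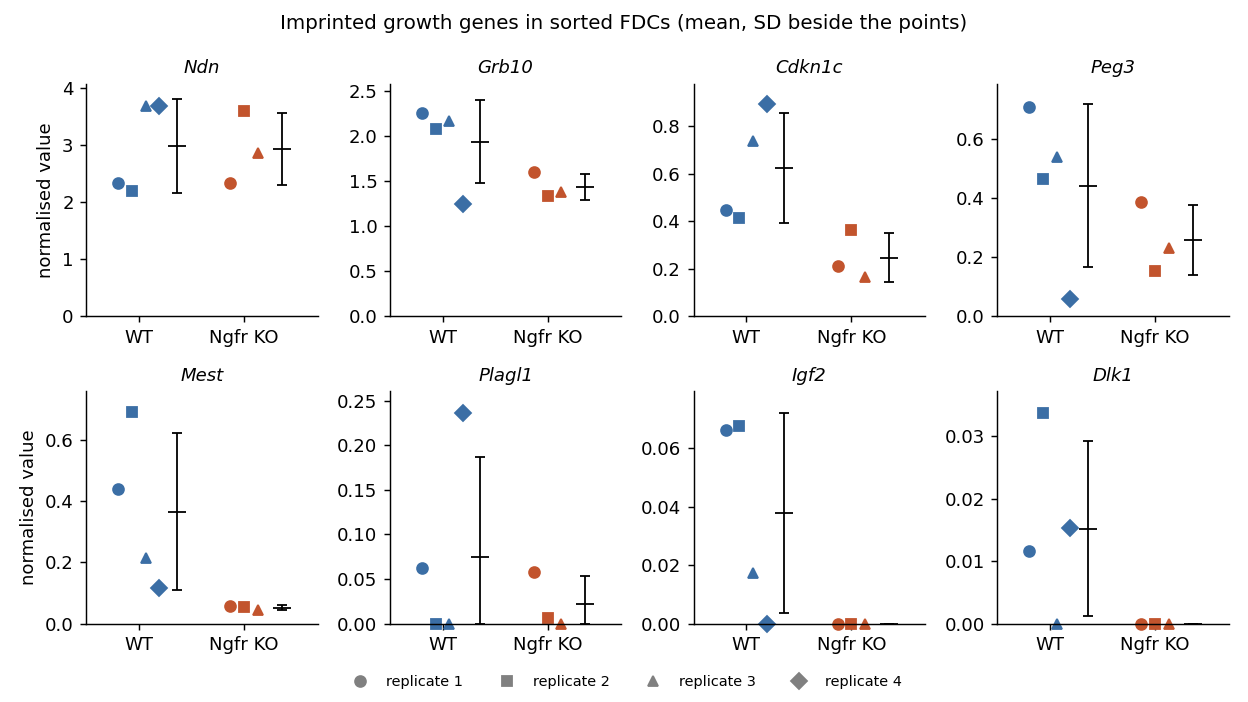
Normalised value (vertical axis, no unit, starting at 0) of each of the 8 members in 4 WT (blue) and 3 Ngfr KO (orange) samples, with a marker shape per replicate number and the mean and SD beside the points, the lower bar ending at 0 where the SD exceeds the mean. Mest and Cdkn1c show all Ngfr KO points below all WT points, Ndn shows groups that overlap almost fully, and Igf2 and Dlk1 are at 0 in all 3 Ngfr KO samples.

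Mest, also called Peg1, encodes an enzyme-like protein of the alpha/beta hydrolase fold and is expressed from the paternal copy in mesoderm-derived tissue. It lies at chr6:30723547-30748465 on the plus strand (GRCm38, GENCODE M21, ENSMUSG00000051855). Reads numbered 113, 184, 49 and 30 in WT replicates 1 to 4 and 16, 16 and 11 in Ngfr KO replicates 1 to 3. The normalised values were 0.440, 0.689, 0.213 and 0.114 in WT and 0.0580, 0.0543 and 0.0440 in Ngfr KO. WT replicates 1 and 2 were the highest, WT replicate 4 was the WT sample closest to the Ngfr KO samples, and the Ngfr KO samples lay close together. The value averaged 0.364 ± 0.256 over the 4 WT samples and 0.0521 ± 0.0072 over the 3 Ngfr KO samples (SD), a 6.98-fold lower mean. Mest fell by 2.71 on the log2 scale in edgeR (SE 0.75, adjusted p = 0.0357). On reads thinned to the smallest library, so that depth was equal, the edgeR adjusted p was 0.0374. The pseudocount of the main test exceeds every Mest value, and on that scale Mest differed by -0.36 (SE 0.16, limma adjusted p = 0.0993), and with array weights, which give less weight to samples that vary more, -0.53 (limma adjusted p = 0.00261). The difference of means had an exact two-sided permutation p of 0.0857, where the 35 splits allow no less than 0.0286.

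The edgeR call of Mest rested on few samples. It held without WT replicate 3 or WT replicate 4 (edgeR adjusted p = 0.0316 and 0.0208). Leaving out WT replicate 1, WT replicate 2 or Ngfr KO replicate 1, 2 or 3 raised the edgeR adjusted p to 0.0871, 0.128, 0.0972, 0.105 and 0.0833. The log2 change was between -3.02 and -2.22 in all 7 of these fits. Mest shares 912 exon bases, 23.1% of its exon length, with Copg2 on the opposite strand. Whether the authors' counting used strand is not given in the sources used here, so reads in these bases may come from either gene. Copg2, a coat protein gene of vesicle transport, went the other way: its WT values spanned 0.790 to 0.913 and its Ngfr KO values 0.984 to 1.16, without overlap (edgeR log2 change 0.44, adjusted p = 0.253).

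The promoter windows of Mest are shown because Mest was the member that passed a test, and those of Grb10 and Ndn because these were the members above the filter. Each window runs from 250 bases before to 50 bases after a RefSeq start on GRCm38.p6, printed 5′ to 3′ on the gene's strand. Capitals mark the motif TGCCGC or its reverse complement GCGGCA, searched on both strands. ZFP57, a zinc finger protein that keeps imprints methylated in the early embryo, is known to bind this motif when it is methylated.
Mest, downstream start, chr6:30737800-30738099, plus strand: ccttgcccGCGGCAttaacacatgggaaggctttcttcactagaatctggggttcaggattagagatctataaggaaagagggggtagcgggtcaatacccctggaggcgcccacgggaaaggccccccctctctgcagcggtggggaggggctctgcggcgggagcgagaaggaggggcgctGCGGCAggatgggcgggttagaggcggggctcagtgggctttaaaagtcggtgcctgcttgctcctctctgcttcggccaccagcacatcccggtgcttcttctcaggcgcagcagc
Mest, upstream start, chr6:30733256-30733555, plus strand: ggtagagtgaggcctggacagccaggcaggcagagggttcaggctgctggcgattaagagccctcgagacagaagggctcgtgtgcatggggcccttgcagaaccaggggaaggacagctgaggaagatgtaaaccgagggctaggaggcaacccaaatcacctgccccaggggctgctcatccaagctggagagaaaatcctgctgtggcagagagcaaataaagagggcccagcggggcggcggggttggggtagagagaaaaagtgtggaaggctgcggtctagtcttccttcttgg
Grb10, upstream start, chr11:12037371-12037670, minus strand: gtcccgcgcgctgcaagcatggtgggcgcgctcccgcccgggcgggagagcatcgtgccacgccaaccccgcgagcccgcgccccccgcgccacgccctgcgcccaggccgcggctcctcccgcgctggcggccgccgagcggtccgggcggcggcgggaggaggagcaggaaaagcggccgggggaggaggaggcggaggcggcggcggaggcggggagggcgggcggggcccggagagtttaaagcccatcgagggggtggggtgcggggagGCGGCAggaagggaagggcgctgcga
Grb10, downstream start, chr11:12027922-12028221, minus strand: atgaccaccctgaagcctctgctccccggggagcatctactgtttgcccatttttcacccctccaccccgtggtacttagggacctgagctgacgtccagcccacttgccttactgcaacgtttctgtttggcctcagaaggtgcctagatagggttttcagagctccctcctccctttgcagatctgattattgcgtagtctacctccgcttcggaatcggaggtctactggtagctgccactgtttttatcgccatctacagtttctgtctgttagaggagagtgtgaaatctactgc
Ndn, chr7:62348027-62348326, plus strand: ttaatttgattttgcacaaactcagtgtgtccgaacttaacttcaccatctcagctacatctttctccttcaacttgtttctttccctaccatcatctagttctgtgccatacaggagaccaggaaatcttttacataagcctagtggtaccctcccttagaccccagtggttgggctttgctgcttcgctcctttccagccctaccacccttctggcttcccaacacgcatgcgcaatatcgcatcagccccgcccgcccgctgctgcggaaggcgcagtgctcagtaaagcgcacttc
The downstream Mest window held 2 copies of the motif, the upstream Grb10 window 1, and the upstream Mest, downstream Grb10 and Ndn windows 0. Windows were given for 7 of the 8 members, 13 in all, 2 of which overlap at Mest. The motif was in 5 of the 13, belonging to Mest, Igf2, Plagl1 and Grb10, and in 11.6% of all 32851 windows of the same length. CpG dinucleotides numbered 17 in the downstream and 8 in the upstream Mest window, 45 in the upstream and 9 in the downstream Grb10 window, and 11 in the Ndn window, against a median of 7 over all windows. No methylation was measured, and a match of letters is a description of these windows only.

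Cdkn1c encodes a cyclin-dependent kinase inhibitor that holds cells out of division and is expressed from the maternal copy (chr7:143458339-143461050, minus strand, ENSMUSG00000037664). Reads numbered 115, 110, 170 and 235 in WT replicates 1 to 4 and 58, 107 and 41 in Ngfr KO replicates 1 to 3. The normalised values were 0.448, 0.412, 0.739 and 0.896 in WT and 0.210, 0.363 and 0.164 in Ngfr KO. WT replicates 3 and 4 were highest, the reverse of Mest, and Ngfr KO replicate 2 came within 0.05 of WT replicate 2. Means of 0.624 ± 0.233 over the 4 WT samples and 0.246 ± 0.104 over the 3 Ngfr KO samples (SD) were 2.54-fold apart. For Cdkn1c limma gave -0.37 on the log2 scale (SE 0.15, adjusted p = 0.0732, or 0.0344 with array weights) and edgeR -1.26 (SE 0.48, adjusted p = 0.103), so Cdkn1c passed neither test although its groups did not overlap. The exact two-sided permutation p was 0.0857. Of its exon bases, 30.7% overlap an antisense gene (Gm44732), whose reads cannot be told apart without strand.

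Other inhibitors of the same kind were read from a list of 8 CDK inhibitor genes, Cdkn1c included, 5 of which entered the main test. Cdkn1b, a close relative of Cdkn1c, was called lower (mean 2.29 ± 0.09 in 4 WT and 1.43 ± 0.43 in 3 Ngfr KO samples, SD, limma adjusted p = 0.0377), and Cdkn2b, an inhibitor of the early G1 kinases, higher (0.789 ± 0.414 and 1.66 ± 0.13, limma adjusted p = 0.0251). Over all genes 34.2% were called. Neither of these calls was made by edgeR (adjusted p = 0.0922 and 0.0779), which called 1 of 7, the phosphatase gene Cdkn3, higher (adjusted p = 0.0225). That is 14.3%, where edgeR called 15.2% of all its tested genes. In limma Cdkn1b was called only when the sample left out was Ngfr KO replicate 3 (adjusted p of 0.0538 to 0.172 in the other 6 fits). Cdkn2b was called only without WT replicate 3 or 4 (limma adjusted p of 0.0583 to 0.0710 in the other 5). edgeR tested all 20 genes of a proliferation list and called 7 higher and 0 lower, or 35.0% where 8.67% of all genes were called higher, with a median log2 change of 2.66 against -0.02. In 11 of the 20 every Ngfr KO value was above the highest WT value, where 12.5% of all genes were so arranged. The main test took in 5 of them and called 2, both higher, where 18.3% of all genes were: Cdk1, the kinase of mitotic entry (limma adjusted p = 0.00331), and Tk1, a thymidine kinase (limma adjusted p = 0.0318, edgeR adjusted p = 0.0515). Cdk1 reached a value of 1 in Ngfr KO samples only. It entered the main test through the group where it was higher, so its place in this count was set partly by the filter. Tk1 was not called without WT replicate 1 or 3 or Ngfr KO replicate 2 or 3 (limma adjusted p of 0.0565 to 0.0969), while Cdk1 was called by limma without any single WT sample and fell below the filter without any single Ngfr KO sample (edgeR adjusted p = 0.0568 without Ngfr KO replicate 1).

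Grb10 encodes an adaptor that binds insulin and IGF receptors and dampens their signalling, and is expressed from the maternal copy in most tissues (chr11:11930508-12038683, minus strand, ENSMUSG00000020176). Its values were 2.25, 2.07, 2.16 and 1.25 in WT replicates 1 to 4 and 1.60, 1.33 and 1.37 in Ngfr KO replicates 1 to 3. In WT, 3 samples lay above all Ngfr KO samples and replicate 4 lay below them. In limma Grb10 had a log2 change of -0.26 (SE 0.16, 95% interval -0.61 to 0.10, limma adjusted p = 0.235), and edgeR gave -0.36 (SE 0.25, adjusted p = 0.371). A difference in Grb10 was therefore not shown, and the interval leaves room for a fall of up to 0.61 or a rise of up to 0.10 on that scale. Across the 7 samples, the tested genes whose log2(value + 1) followed Grb10 most closely were Usp47, Taf1 and Hnrnpd (Pearson's r 0.983, 0.982 and 0.979), a description over samples that also differ in genotype.

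Ndn encodes necdin, a growth-restraining protein of the MAGE family expressed from the paternal copy within the Prader-Willi region (chr7:62346569-62350262, plus strand, ENSMUSG00000033585). It was the most abundant member, with values of 2.34, 2.20, 3.70 and 3.69 in WT replicates 1 to 4 and 2.34, 3.60 and 2.87 in Ngfr KO replicates 1 to 3. The groups covered nearly the same range, with means of 2.98 ± 0.82 over 4 WT and 2.93 ± 0.63 over 3 Ngfr KO samples (SD). Its log2 change was -0.01 (SE 0.19, 95% interval -0.42 to 0.41, limma adjusted p = 0.982), and edgeR put it slightly above 0 (0.05, SE 0.26, adjusted p = 0.923). The genes closest to Ndn across samples were Pgghg, Csnk1d and Aktip (Pearson's r 0.968, 0.966 and 0.960, n = 7). Other genes of the Prader-Willi region were low: the splicing protein gene Snrpn spanned 0.885 to 1.51 (WT) and 0.387 to 0.932 (Ngfr KO), with overlap (edgeR adjusted p = 0.154).

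Peg3, a zinc finger gene expressed from the paternal copy (chr7:6703892-6730431, minus strand), had values of 0.708, 0.464, 0.539 and 0.0572 in WT replicates 1 to 4 and 0.388, 0.153 and 0.232 in Ngfr KO replicates 1 to 3. WT replicate 4 was the lowest of all 7 samples and the other WT samples were the highest, so the groups overlapped through a single library. The edgeR log2 change was -0.71 (SE 0.72, adjusted p = 0.543) with all samples and -1.08 without WT replicate 4 (edgeR adjusted p = 0.163). The neighbouring gene Usp29, which starts beside Peg3 and runs the other way, spanned 0.139 to 0.319 (WT) and 0.0882 to 0.218 (Ngfr KO; edgeR adjusted p = 0.506).

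Plagl1, a zinc finger regulator of other imprinted genes expressed from the paternal copy (chr10:13060504-13131694, plus strand), had 16, 0, 0 and 62 reads in WT replicates 1 to 4 and 16, 2 and 0 in Ngfr KO replicates 1 to 3. WT replicate 4 held 62 of the 96 Plagl1 reads of the series. The edgeR log2 change of -1.69 (SE 1.89, adjusted p = 0.586) became 0.14 without that library (edgeR adjusted p = 0.970), so no direction can be read for Plagl1 at this depth.

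Igf2, the growth factor of fetal life expressed from the paternal copy (chr7:142650766-142666816, minus strand), had 17, 18, 4 and 0 reads in WT replicates 1 to 4 and 0 in each Ngfr KO library. Dlk1, a transmembrane relative of Notch ligands expressed from the paternal copy (chr12:109452823-109463336, plus strand), had 3, 9, 0 and 4 reads in WT and 0 in each Ngfr KO library. In both genes a WT library was also at 0, so the groups overlapped. A count of 0 allows 3 reads over the 3 Ngfr KO libraries together (a one-sided 95% limit), a value of 0.00366. The two-sided 95% limit is 3.69 reads, against which the folds below would be smaller. Against that limit, the level counted over the WT libraries together was at least 10.5-fold higher for Igf2 and at least 4.30-fold higher for Dlk1. With the WT reads at the lower end of their two-sided 95% Poisson interval these limits were 7.46-fold and 2.46-fold. WT replicate 2 held 9 of the 16 Dlk1 reads, and without it the limit for Dlk1 was 2.55-fold, while that for Igf2 was 7.66-fold or more without any single WT library. All of these cover counting error only, since amplified reads are not independent molecules. Neither gene passed the edgeR filter. Added to the edgeR fit by themselves, they had adjusted p-values of 0.0933 and 0.148. Of the exon bases of Igf2, 62.8% are shared with another gene, Gm49394, on the same strand, so the assignment of these reads is uncertain. Rian, a maternally expressed non-coding neighbour of Dlk1, spanned 0.0156 to 0.0374 (WT) and 0.00363 to 0.00801 (Ngfr KO), which is at most 10 reads in any library.

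Levels of different members were compared per kb of annotated exon, counting every annotated exon of a gene. In WT, Ndn averaged highest at 0.808 ± 0.223 per kb (SD over 4 samples), followed by Cdkn1c at 0.306 ± 0.115, Grb10 at 0.213 ± 0.051, Mest at 0.0923 ± 0.0648 and Peg3 at 0.0332 ± 0.0207. Plagl1, Igf2 and Dlk1 followed at 0.00955, 0.00659 and 0.00268 per kb. Ndn did not overlap Cdkn1c over the WT samples, and every other pair of neighbours in this order did. In Ngfr KO the order was Ndn (0.794 per kb), Grb10 (0.158), Cdkn1c (0.121), Peg3 (0.0193) and Mest (0.0132), so Mest stood below Peg3 there, with overlapping ranges. Averaged over all samples, Ndn ranked above 83.1% of all genes per kb, Cdkn1c above 62.8%, Grb10 above 59.3% and Mest above 38.3%.

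**Figure D2:**
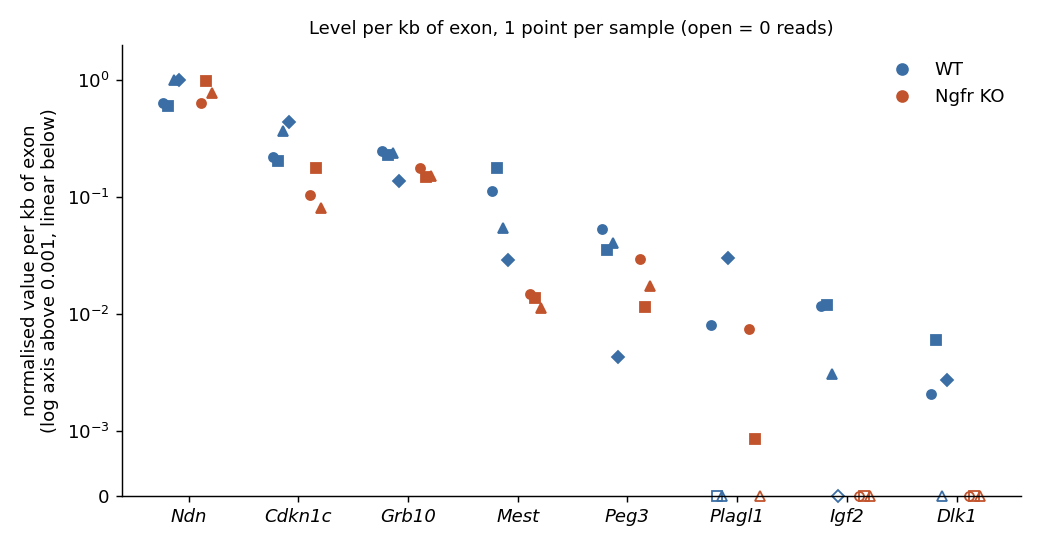
Normalised value per kb of exon (vertical axis, logarithmic above 0.001 and linear below) for each member, with a point per WT (blue) and Ngfr KO (orange) sample and open points for 0 reads. Ndn sits near 1 in both genotypes, and Mest drops from 0.0290 to 0.175 in WT to 0.0112 to 0.0147 in Ngfr KO.

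Within WT, some members varied together but not all of them did. Grb10, Peg3, Mest and Igf2 were lowest in WT replicate 4, while Cdkn1c was highest there and Ndn was high in replicates 3 and 4. Over the 7 samples, log2(value + 1) of Mest went with that of Igf2 (Pearson's r 0.963) and that of Grb10 with Peg3 (0.955), while Ndn ran against Mest (-0.554). These are descriptions of few samples with low counts that share library and genotype. Among WT samples, the endothelial marker sum was highest in replicate 1, at 301, and lowest in replicate 4, at 195. Adventitial fibroblast, myeloid and T cell marker sums were also highest in replicate 1 (7.03, 19.4 and 10.7). They were lowest in replicate 3 (0.743, 6.05 and 3.96). FDC and pericyte marker sums ran the other way, lowest in replicate 1 (1852 and 25.3) and highest in replicate 4 (5185 and 61.7). The part of these sums in the spread of the members was not tested.

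**Figure D3:**
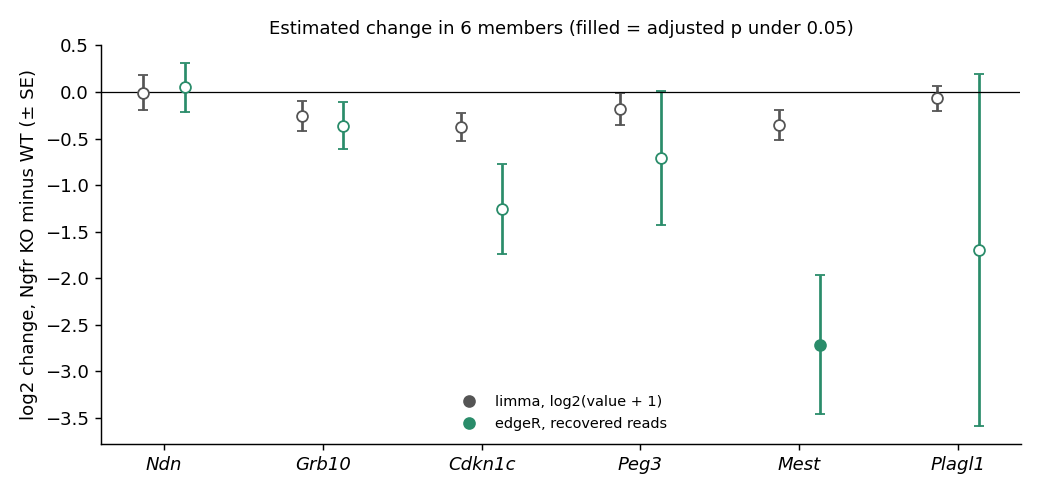
Log2 change from WT to Ngfr KO (vertical axis, error bars SE) of the 6 members that passed edgeR's filter, by limma on log2(value + 1) (grey) and by edgeR on recovered reads (green), with filled points for an adjusted p-value under 0.05. The edgeR estimate of Mest, at -2.71, is the only filled point, and Ndn lies near 0 in both tests.

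Other imprinted genes were counted to set the members beside their class. A list of paternally and maternally expressed genes, made with earlier results of these data known, gave 33 further genes in the table, of which 15 entered the main test. Of these, 7 were called, 5 lower and 2 higher, or 46.7% against 34.2% of all genes, and their median log2 change was -0.14 against 0.02. Peg13, among those called lower, reached a value of 1 in WT samples only. It entered the main test through the group where it was higher, so its place in this count was set partly by the filter. edgeR called the same 7 genes among 26 it tested, 26.9% against 15.2% of all genes. With single samples left out, edgeR called 1 of them without Ngfr KO replicate 1, 2 without Ngfr KO replicate 2, and 3 each without Ngfr KO replicate 3, WT replicate 1 or WT replicate 2. limma called 6 to 8. Several of these genes are imprinted only in some tissues, such as the placenta or brain.

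The genes called lower were Kcnq1ot1, Gnas, Slc38a4, Peg13 and Osbpl5. Kcnq1ot1 is the paternally expressed non-coding RNA that silences the Cdkn1c domain on the same chromosome copy (chr7:143203458-143296549, minus strand). Its values were 10.9, 9.54, 4.77 and 9.56 in WT replicates 1 to 4 and 4.95, 2.57 and 3.11 in Ngfr KO replicates 1 to 3, with WT replicate 3 just below Ngfr KO replicate 1. Its log2 change was -1.08 (SE 0.25, limma adjusted p = 0.00791; edgeR -1.23, adjusted p = 0.0276), so this RNA and Cdkn1c were both at lower means in Ngfr KO. Kcnq1 overlaps Kcnq1ot1 on the opposite strand, with 121 shared exon bases (0.13% of the exon length of Kcnq1ot1). Reads from Kcnq1 introns there cannot be told apart without strand. Gnas, which encodes a G-protein alpha subunit and gives rise to transcripts from either parental copy, fell from 19.4 ± 5.6 to 9.08 ± 1.33 (log2 change -0.98, limma adjusted p = 0.00657). Of its exon bases, 13.1% overlap Gm20721 and 8.83% Nespas, both on the opposite strand. Slc38a4, an amino acid transporter gene, fell from 11.1 ± 3.6 to 5.58 ± 0.93 (limma adjusted p = 0.0168). The non-coding Peg13 fell by 0.70 and Osbpl5, a lipid-binding protein gene near Cdkn1c, by 0.89 on the log2 scale (limma adjusted p = 0.00632 and 0.00747).

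Cd81 and H13 were called higher. Cd81 encodes a tetraspanin of the cell surface and lies beside the Cdkn1c domain. Its mean rose from 45.7 ± 14.3 over 4 WT samples to 92.6 ± 20.3 over 3 Ngfr KO samples (SD), or by 1.04 on the log2 scale (limma adjusted p = 0.0122). H13, a signal peptide peptidase gene, rose from 7.43 ± 1.81 to 13.8 ± 1.3 (limma adjusted p = 0.00675). In limma, the call of Cd81 was lost without Ngfr KO replicate 2 (adjusted p = 0.0557) and that of Slc38a4 without Ngfr KO replicate 1 (adjusted p = 0.0536), and those of Cd81, Slc38a4 and Kcnq1ot1 without a filter (adjusted p = 0.0587, 0.0687 and 0.0511). Without WT replicate 1, 2 or 4, Peg13 fell below the filter and was not tested in limma, while edgeR called it in these 3 fits (adjusted p = 0.0416, 0.0357 and 0.0259). The same neighbourhood thus held Kcnq1ot1 and Osbpl5 lower and Cd81 higher, while Nap1l4 next to them had a log2 change of 0.08 (limma adjusted p = 0.699). Of 21 listed neighbours of the members that were in the table, 7 were tested and 3 called, or 42.9% where 34.2% of all genes were, and edgeR called 3 of 16, or 18.8% where 15.2% of all genes were. The 3 called by limma were Kcnq1ot1, Cd81 and Phactr2, a phosphatase and actin regulator gene beside Plagl1 (log2 change -0.95, limma adjusted p = 0.00432). Osbpl5 was not on this list of neighbours and is not in these counts.

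**Figure D4:**
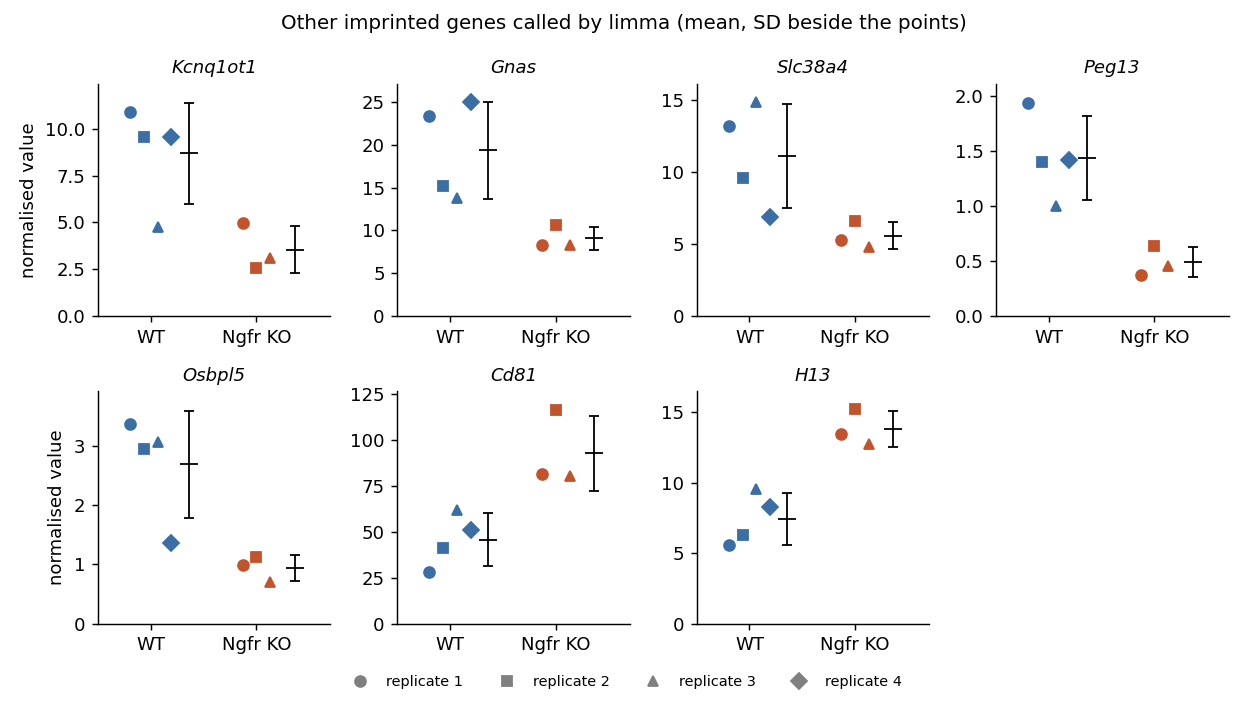
Normalised value (vertical axis, no unit, starting at 0) of the 7 other imprinted genes called by limma, in 4 WT (blue) and 3 Ngfr KO (orange) samples, with the mean and SD beside the points. Peg13, Osbpl5, Gnas and Slc38a4 lie lower and Cd81 and H13 higher in every Ngfr KO sample than in every WT sample, and Kcnq1ot1 overlaps through WT replicate 3.

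Igf2 acts through the IGF receptor Igf1r and is cleared by Igf2r, which is itself imprinted and expressed from the maternal copy. With Igf2 at 0 to 18 reads, the ligand present in these libraries was Igf1, at 29.6, 24.4, 26.7 and 19.4 in WT replicates 1 to 4 and 9.39, 9.02 and 10.1 in Ngfr KO replicates 1 to 3 (log2 change -1.29, limma adjusted p = 6.36e-04). Of 16 genes of this axis in the table, 12 were tested, 5 called lower and 1 higher, where 15.8% of all tested genes were called lower and 18.3% higher. Igf1r fell from 5.23 ± 1.21 to 2.15 ± 0.33 (limma adjusted p = 0.00207), the binding protein gene Igfbp7 fell by 1.33 on the log2 scale (limma adjusted p = 0.00143), and Pappa, a protease of IGF-binding proteins, rose from 1.94 ± 0.94 to 8.52 ± 1.57 (limma adjusted p = 8.18e-04). Igfbp4 and Stc2, an inhibitor of Pappa, were also called lower (limma adjusted p = 0.0392 and 0.0169). Igfbp4 was not called by edgeR (adjusted p = 0.108), nor by limma in 6 of the 7 fits without a single sample, that without WT replicate 3 being the exception (limma adjusted p of 0.0549 to 0.101 in the 6). Stc2 was not called by limma without Ngfr KO replicate 1 or 3 (adjusted p = 0.0697 and 0.0501). Igf2r spanned 0.991 to 1.81 (WT) and 1.10 to 1.39 (Ngfr KO), with overlap (limma adjusted p = 0.501).

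Factors that maintain or read imprints were present in both genotypes. Of 21 listed, 20 were in the table, 15 were tested and 5 were called, all lower: Yy1, Tet2, Smchd1, Ctcf and Suz12. That is 33.3% of those tested, where 15.8% of all genes were called lower and 34.2% in either direction. edgeR called 2 of 19, both lower, or 10.5% where 6.55% of all genes were called lower. Yy1, a zinc finger factor with known binding sites at Peg3, fell from a mean of 5.47 ± 0.53 over 4 WT samples to 2.77 ± 0.36 over 3 Ngfr KO samples (SD; log2 change -0.78, limma adjusted p = 0.00285, edgeR adjusted p = 0.0105). Ctcf, the insulator protein of the Igf2-H19 domain, spanned 4.60 to 7.60 (WT) and 2.66 to 3.99 (Ngfr KO; limma adjusted p = 0.0331, edgeR adjusted p = 0.103). Smchd1 and Suz12 were not called by edgeR either (adjusted p = 0.0553 and 0.0759). Leaving out single samples, limma made the call of Ctcf only without WT replicate 1 or 2 (adjusted p of 0.0553 to 0.107 in the other 5 fits) and that of Suz12 only without WT replicate 2 or 3 (0.0814 to 0.101 in the other 5). Without WT replicate 1 or 2 and without Ngfr KO replicate 2, Smchd1 and Tet2 were not called (limma adjusted p of 0.0538 to 0.0826), nor was Smchd1 without Ngfr KO replicate 1 (0.0713) or Tet2 without Ngfr KO replicate 3 (0.0587). The call of Yy1 held in all 7. Dnmt1, the maintenance methyltransferase, had a log2 change of -0.11 (limma adjusted p = 0.598), and Zfp57 had values of at most 0.0826 in any sample.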

How the data were processed

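RNA was sequenced from sorted lymph node FDCs in 7 samples, 4 WT and 3 Ngfr KO, grouped by title. The labels' protocols give amplification with SMART-Seq v4 and libraries made with Nextera XT. Per the submitters' processing notes, bcl2fastq 2.20.0.422 and the mm10 build were used; the aligner, counter and annotation are not given in the sources used here. The authors deposited a normalised signal per gene. Dividing each sample's values by its smallest step gave whole numbers for 100% of genes (within 0.01 read), and these were taken as its reads. All genes in the table had at least 3 reads over the samples. Replicates are separate pools of animals, so p-values measure the spread between pools.

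The main test was limma 3.58.1 (R 4.3.3; eBayes with trend) on log2(value + 1) for the 8326 genes reaching 1 in 3 or more samples, Benjamini-Hochberg adjusted, threshold 0.05. Members below the filter were added to the same fit 1 at a time. edgeR 4.0.16 (quasi-likelihood, filterByExpr) tested the recovered reads (16751 genes); its SE is the log2 change divided by the root of F. Both fits were run on simulated counts, in which changes were made only in genes past the limma filter. A change in members below that filter, such as Mest, was not simulated. Exact permutation tests are two-sided on differences of means over 35 splits. Coordinates and exon lengths are from GENCODE M21 (GRCm38), where 21118 of 21176 identifiers matched, and promoters from RefSeq, GRCm38.p6. Members and lists were chosen with earlier results of these data known. Named are all members and Ngfr, the called genes of each list (at most 5 a direction) and the 3 genes closest to each tested member across samples; neighbours, Igf2r, Cdkn3, Dnmt1 and Zfp57 named beside them were chosen after their values were seen.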

Additional observations from a re-analysis of the deposited data

How the results depend on the processing

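The main count of 2844 called genes became 535 when genes had to reach 10 in 3 or more samples and 4881 with array weights, and ranged from 1614 to 3006 when single replicates were left out. Lowest values came without Ngfr KO replicate 2 (1614), Ngfr KO replicate 1 (1803) and WT replicate 1 (1870). edgeR called 2551 genes, and with single replicates left out 996 (without Ngfr KO replicate 2), 1129 (Ngfr KO replicate 1), 1449 and 1470 (WT replicates 1 and 2) up to 2738. The count of called members, 0 of 2 tested in limma (0 also at an unadjusted p under 0.05), was 1 with edgeR, 1 with edgeR on reads thinned to the smallest total and 0 to 1 with edgeR and single replicates left out. It stayed 0 under the limma alternatives; the filter at 10 left no member to count. The other imprinted genes called, 7, became 4 without a filter, 3 with the filter at 10 and 11 with array weights, 6 to 8 with single replicates left out in limma and 1 to 6 in edgeR. The causes were not tested, apart from fewer genes under the stricter filter and fewer samples.

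Mest was lower under all 26 alternatives, with an adjusted p under 0.05 in 7 (of 16 limma fits the 2 with array weights and without WT replicate 4, and 5 of 10 edgeR fits). Cdkn1c was lower in all 26 and under 0.05 in 1, array weights (limma adjusted p = 0.0344). Peg3 and Grb10 kept a negative sign in all 26, under 0.05 in 0. Igf2 and Dlk1 did so too, but they had 0 reads in every Ngfr KO library. Their sign could hardly turn, so it adds no support. Ndn turned positive in 13 of 26: 0.043 with median ratio scaling, 0.0017 with array weights, 0.049 with edgeR, 0.037 with edgeR on thinned reads, and with single replicates left out -0.13 to 0.11 in limma and, in edgeR, 0.17 and 0.15 without WT replicates 3 and 4 and 0.19 and 0.086 without Ngfr KO replicates 1 and 3. Plagl1 turned positive in 5: 0.018 with array weights, -0.10 to 0.0013 with single replicates left out in limma (positive without WT replicate 4) and 0.14 without WT replicate 4 in edgeR, besides both fits with the replicate block.

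Replicate numbers are in the sample titles. Deviations from the group mean had a Pearson's r across genes of 0.298, -0.0593 and -0.0108 for numbers 1, 2 and 3. The value for number 1 was the highest of any WT and Ngfr KO pair. The next was 0.111, for WT replicate 3 with Ngfr KO replicate 2. Whether a shared number stands for shared handling is not given in the sources used here, and these correlations cannot decide it. With the replicate block, limma called 2717 genes, 0 members and 9 other imprinted genes, and edgeR 1731, 1 and 5. Under this block Ndn had a log2 change of 0.080 in limma and 0.18 in edgeR, and Plagl1 0.0013 and 0.90. The thinning, the edgeR fits with replicates left out and the edgeR block were chosen after seeing the data. With 11 to 184 Mest reads per library, 0 to 62 for Plagl1, 0 to 18 for Igf2 and 0 to 9 for Dlk1, depth limits what these libraries can show for the low members.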

Other observations

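In 8 comparisons of the 4 WT values, no member had a sample past the critical value of Dixon's gap test. Grb10 came closest, with WT replicate 4 at 1.25 against 2.07 to 2.25 in the others and a gap of 0.822 of the range. Plagl1 followed, with a gap of 0.737 set by the same library.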
